A study of Mus musculus with 24 samples.

Results

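The 38 genes described here are induced in most cell types by type I interferon, and they were chosen by gene name, with earlier results of these data known, and no measured value entered the rule. All 38 were among the 55335 genes of the count table, all had counts, and all were among the 15953 genes that passed the filter on low counts. They were followed in invariant natural killer T (iNKT) cells, a T cell population with a semi-invariant receptor that reads glycolipids on the presenting molecule CD1d. The mice were C57BL/6J, and the cells had been sorted from their mesenteric lymph nodes 24 h after oral gavage. They were the offspring of dams given a fecal transplant (FT) from wild-type donors (WT FT) or from donors without CD1d (CD1d-knockout, KO FT). The gavage was 2 µg of alpha-galactosylceramide (aGC), a glycolipid that activates iNKT cells through CD1d, in 200 µL of PBS, or the same volume of vehicle (PBS). With both sexes kept apart this gives 8 groups of 3 libraries: PBS females, aGC females, PBS males and aGC males with WT FT, and the same 4 with KO FT. No group was without a transplant. The sources used here do not give the ages, the sort gate, the number of mice in a library or the dams, litters and cages. An effect of the transplant donor therefore cannot be told apart from one of dam, litter or cage. The labels leave unsaid whether the 3 libraries within a group are different animals. The p-values below are therefore about the spread of those libraries, and that spread may be technical.

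Type I interferons are secreted proteins that bind the receptor pair IFNAR1 and IFNAR2. The bound receptor activates the kinases JAK1 and TYK2, and STAT2 and IRF9 then act in the nucleus as parts of the complex ISGF3. ISGF3 binds the interferon-stimulated response element (ISRE) in the promoters of antiviral genes. Many of the genes are also expressed at a basal level without infection, and several, such as Usp18, act back on the receptor to limit the response.

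The promoters of 5 genes described below are shown here because the ISRE is the element through which ISGF3 acts. Each line gives the 250 bases upstream of the RefSeq gene start (GRCm38.p6), 5′ to 3′ on the strand of the gene, with matches to the ISRE core (GAAA and GAAA with any 2 bases between them, on either strand) in capitals and overlapping matches as 1 run.
Ifit1: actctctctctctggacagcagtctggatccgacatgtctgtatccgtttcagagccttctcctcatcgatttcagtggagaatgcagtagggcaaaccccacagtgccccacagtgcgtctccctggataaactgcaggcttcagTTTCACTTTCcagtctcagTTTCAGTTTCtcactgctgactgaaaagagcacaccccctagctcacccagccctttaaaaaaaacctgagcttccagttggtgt
Ifit3: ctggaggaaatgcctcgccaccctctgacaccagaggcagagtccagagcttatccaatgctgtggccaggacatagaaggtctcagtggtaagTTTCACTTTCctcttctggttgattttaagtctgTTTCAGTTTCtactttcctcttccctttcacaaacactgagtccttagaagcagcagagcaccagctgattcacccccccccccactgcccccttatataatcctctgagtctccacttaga
Oas1a: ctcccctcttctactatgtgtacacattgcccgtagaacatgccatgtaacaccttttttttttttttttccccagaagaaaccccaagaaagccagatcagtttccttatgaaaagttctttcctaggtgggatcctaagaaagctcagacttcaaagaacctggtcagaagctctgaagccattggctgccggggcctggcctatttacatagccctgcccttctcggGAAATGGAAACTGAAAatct
Isg15: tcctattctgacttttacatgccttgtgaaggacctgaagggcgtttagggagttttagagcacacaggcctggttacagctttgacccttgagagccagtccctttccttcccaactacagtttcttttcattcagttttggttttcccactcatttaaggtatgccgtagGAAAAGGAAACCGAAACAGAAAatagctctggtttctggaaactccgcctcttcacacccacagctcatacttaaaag
Rsad2: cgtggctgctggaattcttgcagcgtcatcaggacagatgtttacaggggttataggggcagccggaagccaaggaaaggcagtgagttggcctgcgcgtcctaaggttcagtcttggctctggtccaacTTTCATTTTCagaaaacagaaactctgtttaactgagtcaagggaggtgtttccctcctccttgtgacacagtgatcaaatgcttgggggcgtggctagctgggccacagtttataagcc
These stretches lie at chr19:34640639-34640888 (plus strand) for Ifit1, chr19:34583279-34583528 (plus strand) for Ifit3, chr5:120907526-120907775 (minus strand) for Oas1a, chr4:156200819-156201068 (minus strand) for Isg15 and chr12:26456453-26456702 (minus strand) for Rsad2. The matches began 104 and 85 bases before the start of Ifit1, 156 and 122 before Ifit3, 20 and 14 before Oas1a, 78, 72 and 66 before Isg15, and 120 before Rsad2. Ifit3b, a near copy of Ifit3, had the same pair of matches at 188 and 154 bases before its start. A RefSeq window of 250 bases before to 50 after the start was found for 28 of the 38 genes. Of these 13 (46.4%) held the ISRE core on either strand, against 3.99% of 27025 genes with such a window. The core of the GAS element, through which interferon gamma mainly acts (TTCNNNGAA), was in 6 of the 28 (21.4%), against 9.55% of genes. A match describes the letters of the window and is not a measured site.

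Total counts ran from 9764931 to 37016768 per library. Levels are given as CPM, counts scaled to the size of the library with TMM factors, without division by gene length, so that a gene is compared with itself across groups and not with another gene. The iNKT markers Trav11, Traj18, Zbtb16, Cd3e, Klrb1c and Slamf6 summed to 2453 to 2909 CPM in the PBS libraries and to 1754 to 2180 CPM in the aGC libraries, with Trav11 group means between 336 and 848 CPM. With aGC 6 of these 6 markers fell in WT FT females (median log2 change -0.91), 5 fell and 1 rose in WT FT males (-0.37), 5 fell in KO FT females (-0.79) and 4 fell in KO FT males (-0.24). Their part in the changes with aGC given below was not tested. Markers of conventional CD8 and naive T cells (6 genes, among them Cd8a, Cd8b1, Ccr7 and Lef1) split the groups in a way the labels do not explain. Their summed level was 467 to 639 CPM in PBS females and aGC males of both transplants, and 1752 to 2820 CPM in aGC females and PBS males of both transplants. Cd8a, a co-receptor gene of CD8 T cells, had group means of 5.20 to 7.59 CPM in the first 4 groups and of 136 to 287 CPM in the other 4. Each comparison of aGC with PBS within a sex therefore set a group low in these markers against a group high in them, with all 6 higher with aGC in females and all 6 lower with aGC in males. The comparisons of KO FT with WT FT within a sex and treatment set low against low or high against high. Among the high groups the KO FT libraries were lower, with all 6 markers lower in PBS males and in aGC females. In RNA of a whole sorted sample, fewer cells of a type and less RNA per cell cannot be told apart. The part of the CD8-marked RNA in the results on aGC was not tested. The labelled sex and treatment were checked against genes that mark them. The X-inactivation transcript Xist ranged from 8.76 to 48.3 CPM across 12 female samples and reached at most 0.646 CPM among the males, whereas Ddx3y, a gene of the Y chromosome, reached at most 0.471 CPM among females and ranged from 41.2 to 78.6 CPM among males. Ifng, which activated iNKT cells express, was at 11.8 to 28.3 CPM in the 12 PBS libraries and at 66.5 to 138 CPM in the 12 aGC libraries. These values leave no library on the other side of its labelled sex or treatment. The transplant has no such gene, and an exchange of its labels or a difference in the sort was not tested.

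Among the 3 libraries of a group, the median SD of the 38 genes was 0.113 on the log2 CPM scale, and the median distance between the highest and lowest of the 8 group means was 1.84. The highest group was PBS females with KO FT for 26 of the 38 genes, against 12.4% of all tested genes. Their summed level was 4001 to 4079 CPM there, and 1624 to 2754 CPM in the libraries of the 7 other groups. The lowest group was aGC males with WT FT for 19 genes (21.1% of all genes) and aGC females with KO FT for 10 (10.5%). Zbp1 and Ifit1 were the 2 genes whose libraries did not overlap between any neighbours in the order of groups, while each of the other 36 had at least 1 overlapping pair of neighbours.

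**Figure D1:**
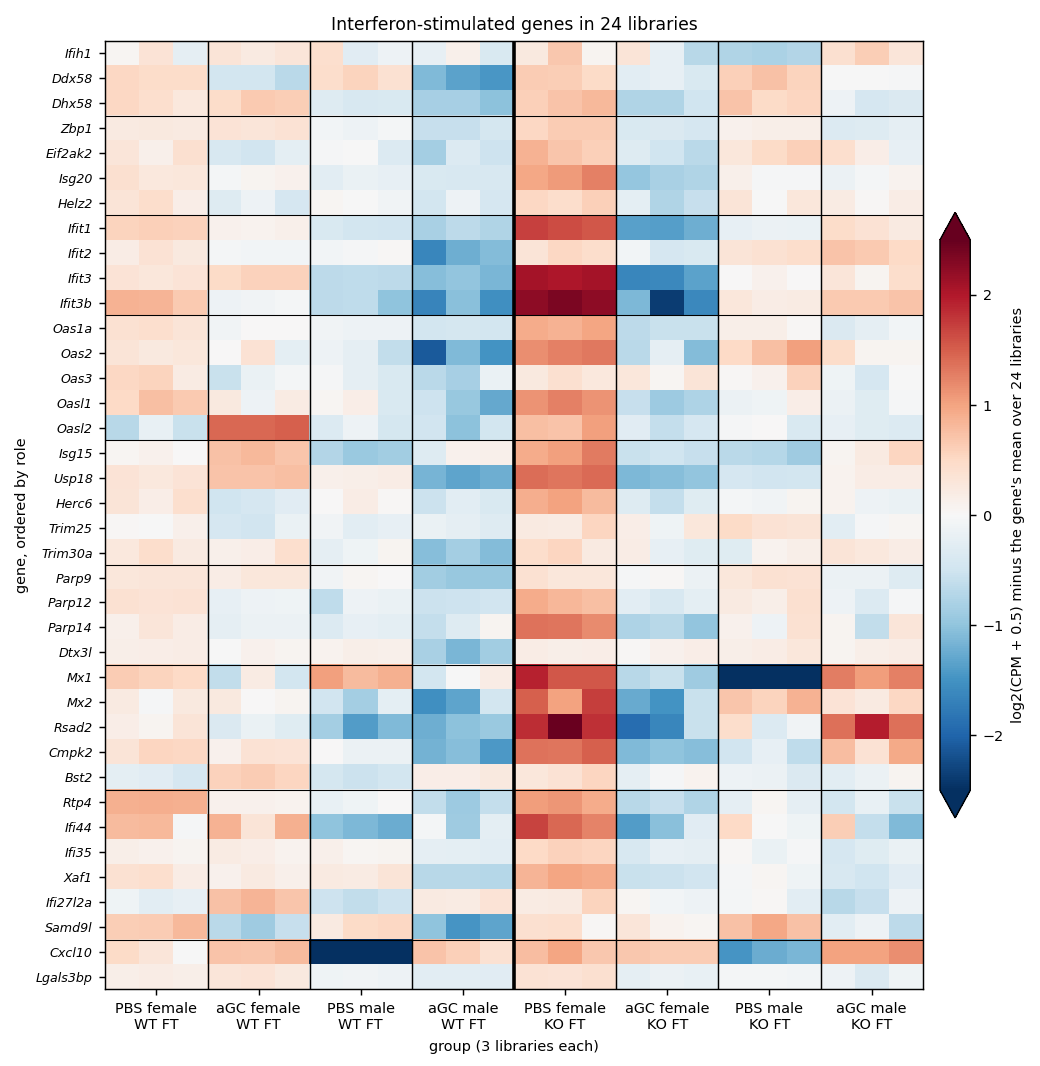
The 38 genes (vertical axis, in blocks by role) in the 24 libraries (horizontal axis, 3 per group). Colour is log2(CPM + 0.5) minus the gene's mean over all libraries, in log2 units, and is capped at 2.5 in both directions. PBS females with KO FT form the reddest block, and Mx1 in PBS males with KO FT and Cxcl10 in PBS males with WT FT are the darkest blue.

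The first comparison set aGC against PBS in mice with WT FT. In females 8 of the 38 genes rose and 17 fell. Over all genes 58.4% passed the same threshold, an adjusted p under 0.05 in edgeR's quasi-likelihood test, with 28.6% higher and 29.8% lower, so the share of the list (25 of 38) is close to the background. In males 5 rose and 24 fell, against 66.6% of all genes (31.7% higher and 34.9% lower). The median log2 change of the list was -0.21 in females and -0.43 in males, where all genes had medians of -0.05 and -0.08.

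The genes that fell most with aGC in WT FT mice were Ddx58 and Samd9l. Ddx58 (ENSMUSG00000040296.15, chr4:40203773-40239828, GRCm38) encodes RIG-I, a cytosolic sensor of viral RNA. It stood at 142, 135 and 136 CPM in PBS females and at 71.9, 71.5 and 61.3 CPM in aGC females. In males it stood at 133, 144 and 128 CPM with PBS and at 45.7, 38.5 and 35.4 CPM with aGC. The treated and control libraries did not overlap in either sex. The log2 change of Ddx58 was -1.01 ± 0.08 (SE, adjusted p = 1.26e-10) in females and -1.76 ± 0.08 (adjusted p = 6.78e-15) in males.

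Samd9l (ENSMUSG00000047735.14, chr6:3372257-3399572) encodes an interferon-induced protein that restrains cell growth and poxvirus replication. In WT FT females it was at 49.4, 50 and 56.7 CPM with PBS and at 20.1, 17.1 and 21.3 CPM with aGC. In WT FT males it was at 37.9, 44.9 and 46.3 CPM with PBS and at 15.8, 11.3 and 12.6 CPM with aGC. Every aGC library lay below every PBS library of its sex. The log2 change was -1.42 ± 0.14 (adjusted p = 7.09e-09) in females and -1.70 ± 0.15 (adjusted p = 4.33e-10) in males.

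Altogether 13 genes fell in both sexes with WT FT, where 17% of all genes did. They were Ddx58, Eif2ak2, Helz2, Ifit1, Ifit2, Ifit3b, Oas1a, Oasl1, Herc6, Mx1, Rtp4, Xaf1 and Samd9l. Eif2ak2 encodes the kinase PKR, which stops translation when it binds double-stranded RNA, and Oas1a and Oasl1 belong to the oligoadenylate synthetase family that senses the same ligand. Of the 13, 9 kept both calls whichever single library was left out. Beside Ddx58 and Samd9l, the falls that were largest in females were those of Ifit3b (-0.91 ± 0.16, adjusted p = 3.93e-05), Mx1 (-0.86 ± 0.20, adjusted p = 0.000805), Rtp4 (-0.80 ± 0.09, adjusted p = 7.28e-08) and Herc6 (-0.72 ± 0.10, adjusted p = 1.06e-06), all without overlap. In males Ifit2 fell from 16.6, 17 and 17.6 CPM to 5.25, 7.13 and 7.86 CPM (-1.34 ± 0.12, adjusted p = 1.67e-09). Oas2 and Cmpk2 also fell in males, at -1.36 ± 0.26 (adjusted p = 7.57e-05) and -1.16 ± 0.14 (adjusted p = 1.38e-07). The female call of Ifit2 was lost without PBS replicate 2 (-0.28, adjusted p = 0.0628), and that of Xaf1 without PBS replicate 1 or 2 or aGC replicate 1 (-0.13 to -0.15, adjusted p = 0.0893 to 0.134). The male calls of Eif2ak2 and Helz2 were lost without PBS replicate 1 or 2 or aGC replicate 1, and that of Helz2 also without aGC replicate 3 (adjusted p = 0.0519 to 0.116).

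Isg15, Bst2, Ifi27l2a and Cxcl10 were the 4 genes that rose in both sexes with WT FT, as did 18.6% of all genes. Isg15 (ENSMUSG00000035692.7, chr4:156199424-156200818) encodes a ubiquitin-like protein that is attached to other proteins and can also be secreted. It was at 40.4, 41.9 and 39.1 CPM in PBS females and at 65.2, 68.4 and 62.8 CPM in aGC females. In males it was at 23.1, 20.2 and 21.1 CPM with PBS and at 31.2, 42.1 and 42.6 CPM with aGC. No aGC library overlapped the PBS libraries of its sex, with log2 changes of 0.69 ± 0.12 (adjusted p = 1.66e-05) in females and 0.85 ± 0.12 (adjusted p = 1.64e-06) in males.

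Bst2 encodes tetherin, which holds budding virus particles at the cell surface. It went from 70.7, 69.2 and 62.9 CPM to 126, 131 and 123 CPM in females and from 61.7, 58.2 and 61.5 CPM to 95.1, 94.4 and 99.8 CPM in males, without overlap (log2 changes 0.91 ± 0.09 and 0.67 ± 0.09, adjusted p = 3.29e-09 and 3.56e-07). Ifi27l2a, which encodes a small interferon-induced membrane protein, was at 183, 164 and 171 CPM in PBS females and at 326, 354 and 318 CPM in aGC females. Its male values were 138, 128 and 138 CPM with PBS and 229, 227 and 251 CPM with aGC. The log2 changes of Ifi27l2a were 0.94 ± 0.11 (adjusted p = 1.25e-07) and 0.80 ± 0.11 (adjusted p = 1.25e-06).

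Cxcl10 (ENSMUSG00000034855.13, chr5:92346638-92348889) encodes a chemokine that attracts activated T cells through CXCR3, and it responds to interferon gamma as well as to type I interferon. In WT FT males it was at 0.599, 0.443 and 0.402 CPM with PBS (13, 8 and 9 counts) and at 10.6, 9.66 and 8.37 CPM with aGC. The aGC males lay at the level of the females, which had 8.97, 7.87 and 6.22 CPM with PBS and 10.6, 10.4 and 11.2 CPM with aGC. The log2 change was 4.28 ± 0.20 (adjusted p = 4.38e-15) in males. In females it was 0.47 ± 0.14 (adjusted p = 0.00738), and that call was lost without PBS replicate 3 (adjusted p = 0.0537) or aGC replicate 3 (adjusted p = 0.0556). The male change exceeded the female one by 3.81 ± 0.25 log2 units (adjusted p = 1.87e-11).

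Usp18 and Oasl2 separated the sexes with WT FT. Usp18 (ENSMUSG00000030107.10, chr6:121245906-121270917) encodes the protease that removes ISG15 from its targets and that blocks signalling at IFNAR2. It rose in females from 80.9, 76.3 and 80.4 CPM to 105, 104 and 107 CPM (log2 change 0.41 ± 0.05, adjusted p = 4.82e-07). It fell in males from 69.8, 70.0 and 72.7 CPM to 28.2, 25.1 and 26.9 CPM (log2 change -1.41 ± 0.06, adjusted p = 5.78e-16). The libraries overlapped in neither sex, and the male minus female difference was -1.82 (± 0.08, adjusted p = 1.18e-14). Oasl2, another gene of the oligoadenylate synthetase family, was at 9.90, 14.2 and 11 CPM in PBS females and at 44.7, 44.8 and 46.9 CPM in aGC females, while the male group means were 13.2 and 10.3 CPM. Its log2 change was 1.96 ± 0.15 (adjusted p = 7.80e-11) in females and -0.35 (adjusted p = 0.0519) in males, a difference of -2.32.

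With Usp18, Ifit3 and Lgals3bp made 3 genes that passed in opposite directions with WT FT (8.61% of all genes). The female changes of Ifit3 and Lgals3bp were small (0.22 and 0.13). The Ifit3 call was lost without replicate 2 or 3 of the aGC females or of the aGC males with WT FT (0.14 to 0.16, adjusted p = 0.0647 to 0.155). The Lgals3bp call was lost without any of those 4 libraries, PBS female replicate 1 or 3 or aGC female replicate 1 (adjusted p = 0.0626 to 0.467). Ifit3 and Ifit3b have transcripts that are 98.0% identical over aligned bases, so the estimator may have divided reads between them. With the counts of both summed, the female change was 0.03 (adjusted p = 0.706). The difference between the sexes itself passed for 16 of the 38 genes, against 47.7% of all genes.

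The second comparison set aGC against PBS in mice with KO FT. In females none of the 38 genes rose and 32 fell, against 27.7% of all genes that rose, 28.3% that fell and 56.0% that passed in either direction. All 38 had a negative sign, 23 fell by at least 2-fold (10.1% of all genes), and the median log2 change was -1.31 against -0.01 for all genes. In males 10 rose and 15 fell (53.5% of all genes passed, 26.8% higher and 26.7% lower), with a median of -0.14 against -0.03. The PBS female libraries of this comparison are those in which 26 of the genes were at their highest level.

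Of the IFIT genes, whose proteins bind viral RNA and block its translation, Ifit3b, Ifit3 and Ifit1 were among the 4 largest falls in KO FT females. Ifit3 (ENSMUSG00000074896.3, chr19:34583531-34588731) was at 391, 375 and 394 CPM with PBS and at 29.6, 29.9 and 36.3 CPM with aGC. In KO FT males it was at 93.5, 99.9 and 92.7 CPM with PBS and at 115, 97.1 and 125 CPM with aGC. The female groups did not overlap, whereas the male groups did. The log2 change was -3.59 ± 0.08 (adjusted p = 4.45e-20) in females and 0.24 ± 0.07 (adjusted p = 0.0101) in males. The male call was lost without aGC replicate 3 (0.15, adjusted p = 0.100) and was 0.28 (adjusted p = 0.00189) with Ifit3b summed in.

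Ifit1 (ENSMUSG00000034459.8, chr19:34640871-34650009) fell in KO FT females from 372, 350 and 331 CPM to 43.7, 43.1 and 48.1 CPM. It rose in KO FT males from 97.8, 102 and 101 CPM to 156, 146 and 132 CPM. Neither pair of groups overlapped, and the log2 changes were -2.96 ± 0.07 (adjusted p = 2.14e-20) and 0.53 ± 0.06 (adjusted p = 1.05e-07). Ifit3b fell in females from 92.8, 100 and 92.5 CPM to 8.56, 3.30 and 6.00 CPM (log2 change -4.03 ± 0.19, adjusted p = 1.47e-14). Mx2 fell from 8.99, 6.30 and 10.7 CPM to 0.906, 0.706 and 1.81 CPM (-2.88 ± 0.33, adjusted p = 1.06e-07), and Ifi44, an interferon-induced gene, from a mean of 6.84 ± 1.15 CPM (SD, n = 3) to 0.992 ± 0.619 CPM without overlap (log2 change -2.71 ± 0.46, adjusted p = 2.71e-05). Ifit2, the fourth gene of the IFIT family, fell in females by 0.74 on the log2 scale (adjusted p = 1.02e-05) and had a change of 0.24 in males (adjusted p = 0.0760).

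Rsad2 and Cmpk2 are adjacent genes that act in 1 antiviral pathway: Cmpk2 supplies CTP, which viperin, the product of Rsad2, turns into a chain terminator of viral RNA. Rsad2 (ENSMUSG00000020641.16, chr12:26442746-26456452) was at 33.4, 51.5 and 32.7 CPM in PBS females and at 2.01, 2.51 and 5.88 CPM in aGC females with KO FT. In males it was at 12.2, 6.93 and 8.36 CPM with PBS and at 23.8, 36.2 and 23.7 CPM with aGC. The groups were apart in both sexes and in opposite order, with log2 changes of -3.43 ± 0.29 (adjusted p = 5.68e-10) and 1.63 ± 0.26 (adjusted p = 1.18e-05).

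Cmpk2 fell from 64.2, 63.4 and 70.6 CPM to 11.2, 12.0 and 11.6 CPM in KO FT females and rose from 17.7, 21.5 and 15.8 CPM to 42.4, 31.7 and 47.9 CPM in males. Its log2 changes were -2.51 ± 0.14 (adjusted p = 4.27e-13) and 1.14 ± 0.13 (adjusted p = 1.23e-07). Usp18 fell in females from 167, 162 and 171 CPM to 28.9, 30.1 and 32.0 CPM and rose in males from 47.2, 45.4 and 46.3 CPM to 67.3, 72.6 and 72.5 CPM. The log2 changes of Usp18 were -2.45 ± 0.06 (adjusted p = 7.64e-20) and 0.61 ± 0.06 (adjusted p = 2.28e-09), again without overlap. Isg15 fell in females from 74.5, 79.7 and 96.5 CPM to 26.3, 27.5 and 26.0 CPM (-1.65 ± 0.12, adjusted p = 5.09e-11) and rose in males from 24.2, 23.6 and 20.8 CPM to 40.8, 45.7 and 56.4 CPM (1.06 ± 0.12, adjusted p = 1.03e-07).

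Mx1 (ENSMUSG00000000386.16, chr16:97447035-97462907) encodes a dynamin-like GTPase that blocks influenza virus in mice with an intact gene. It was nearly without reads in PBS males with KO FT, with 2, 2 and 1 counts (0.155, 0.0676 and 0.0889 CPM). The aGC males with KO FT had 13.3, 11.3 and 13.2 CPM (635 counts in all), and the PBS males with WT FT 11, 9.37 and 9.97 CPM (630 counts). With libraries scaled for depth, aGC males with KO FT exceeded PBS males with KO FT 137-fold (95% exact interval 58.2 to 422, which covers counting error only). In KO FT females Mx1 fell from 21, 16.1 and 16.2 CPM to 3.02, 3.37 and 2.56 CPM (log2 change -2.58 ± 0.21, adjusted p = 4.34e-10). All 3 PBS male libraries with KO FT were low, so no single library carried the difference.

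Opposite calls in the 2 sexes were made for 8 genes with KO FT (9.15% of all genes). These were Ifit1, Ifit3, Ifit3b, Isg15, Usp18, Mx1, Rsad2 and Cmpk2. All 8 were lower with aGC in females and higher in males. No gene of the list rose in these females, so no other order of opposite calls was possible. The male calls of Ifit3 and Ifit3b were lost without aGC replicate 3 (adjusted p = 0.100 and 0.0511), that of Ifit3b also without PBS replicate 2 (adjusted p = 0.0588), and the other 6 genes kept both calls without any single library. Of the 8, 6 had a promoter window and 5 of those the ISRE core, with Ifit3 and its near copy Ifit3b both among the 5. Of the genes that fell in both sexes with KO FT, 6 had a window and 2 of those the core. Of the genes that passed in 1 sex only, 15 had a window and 6 of those the core. Over the whole list 13 of 28 held it, and a link between the core and the calls was not tested. The difference between the sexes itself passed for 32 of the 38 genes (46.7% of all genes), 31 of them with the male value above the female one.

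No gene rose in both sexes with KO FT (14.1% of all genes did), and 12 fell in both, against 11.9% of all genes. They were the sensors Ddx58, Dhx58 and Zbp1, the synthetases Oas1a and Oas2, Parp9, Parp12, Rtp4, Ifi35, Xaf1, Ifi27l2a and Lgals3bp. Dhx58 encodes LGP2, a helicase that modulates RIG-I and MDA5, and Zbp1 encodes a sensor of Z-form nucleic acid. Dhx58 was at 60.5, 65.2 and 70.1 CPM in PBS females, 23.4, 23.5 and 28.2 CPM in aGC females, 65.2, 55.8 and 57.9 CPM in PBS males and 36.5, 29.5 and 30.9 CPM in aGC males with KO FT. The aGC libraries lay below all PBS libraries in both sexes (log2 changes -1.38 ± 0.10 and -0.88 ± 0.10, adjusted p = 4.29e-11 and 5.43e-08). Of the others, the male changes of Oas2 and Parp9 were -0.59 ± 0.22 (adjusted p = 0.0279) and -0.55 ± 0.06 (adjusted p = 1.12e-07), and Trim25, which did not pass in females, fell in males (-0.46 ± 0.11, adjusted p = 0.00136). Of the 12 genes, 8 kept both calls without any single library. The male calls were lost for Oas2 without PBS replicate 2 or 3 or aGC replicate 2 or 3 (adjusted p = 0.0554 to 0.122), for Rtp4 without PBS replicate 2 or aGC replicate 1 or 3 (0.0513 to 0.158) and for Ifi27l2a without PBS replicate 2 or aGC replicate 1 or 2 (0.0629 to 0.0855). The female call of Ifi27l2a was lost without PBS replicate 3 (-0.26, adjusted p = 0.0636). The male call of Lgals3bp was lost without PBS replicate 1 or aGC replicate 2, or without replicate 2 or 3 of aGC females or aGC males with WT FT (adjusted p = 0.0650 to 0.203).

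Ddx58 fell with KO FT as well, from 154, 150 and 137 CPM to 81.4, 85.2 and 75.2 CPM in females and from 149, 163 and 145 CPM to 97.9, 97.7 and 95.9 CPM in males. Its log2 changes of -0.87 ± 0.08 (adjusted p = 2.26e-09) and -0.65 ± 0.08 (adjusted p = 2.08e-07) were again without overlap. Ddx58, Oas1a, Rtp4 and Xaf1 were the 4 genes that fell with aGC in all 4 pairs of groups, as did 6.86% of all genes. None of the 38 rose in all 4, where 10.6% of all genes did. Samd9l fell with KO FT in males, from 53.8, 63.2 and 54.0 CPM to 26.6, 29.3 and 20.3 CPM (-1.18 ± 0.14, adjusted p = 1.46e-07). In females its libraries overlapped, at 42.6, 43.3 and 33.1 CPM with PBS and 40.1, 34.3 and 33.3 CPM with aGC (-0.15, adjusted p = 0.381).

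The change with aGC differed between KO FT and WT FT for 33 of the 38 genes in females (44.2% of all genes) and for 22 in males (39.0%), by the test of the difference. Cxcl10 and Ifih1 passed in KO FT males and not in KO FT females. Cxcl10 was at 1.94, 2.37 and 2.58 CPM in PBS males and at 13.1, 13.1 and 14.7 CPM in aGC males (log2 change 2.57 ± 0.16, adjusted p = 3.88e-12). The females had 11.1, 12.9 and 10.3 CPM with PBS and 10.3, 10 and 9.94 CPM with aGC (-0.18, adjusted p = 0.295). Ifih1, which encodes the RNA sensor MDA5, was at 8.29, 8.01 and 8.45 CPM in PBS males and at 19.1, 22.3 and 17.7 CPM in aGC males (1.26 ± 0.22, adjusted p = 5.34e-05). The PBS males were the low group for both genes.

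**Figure D2:**
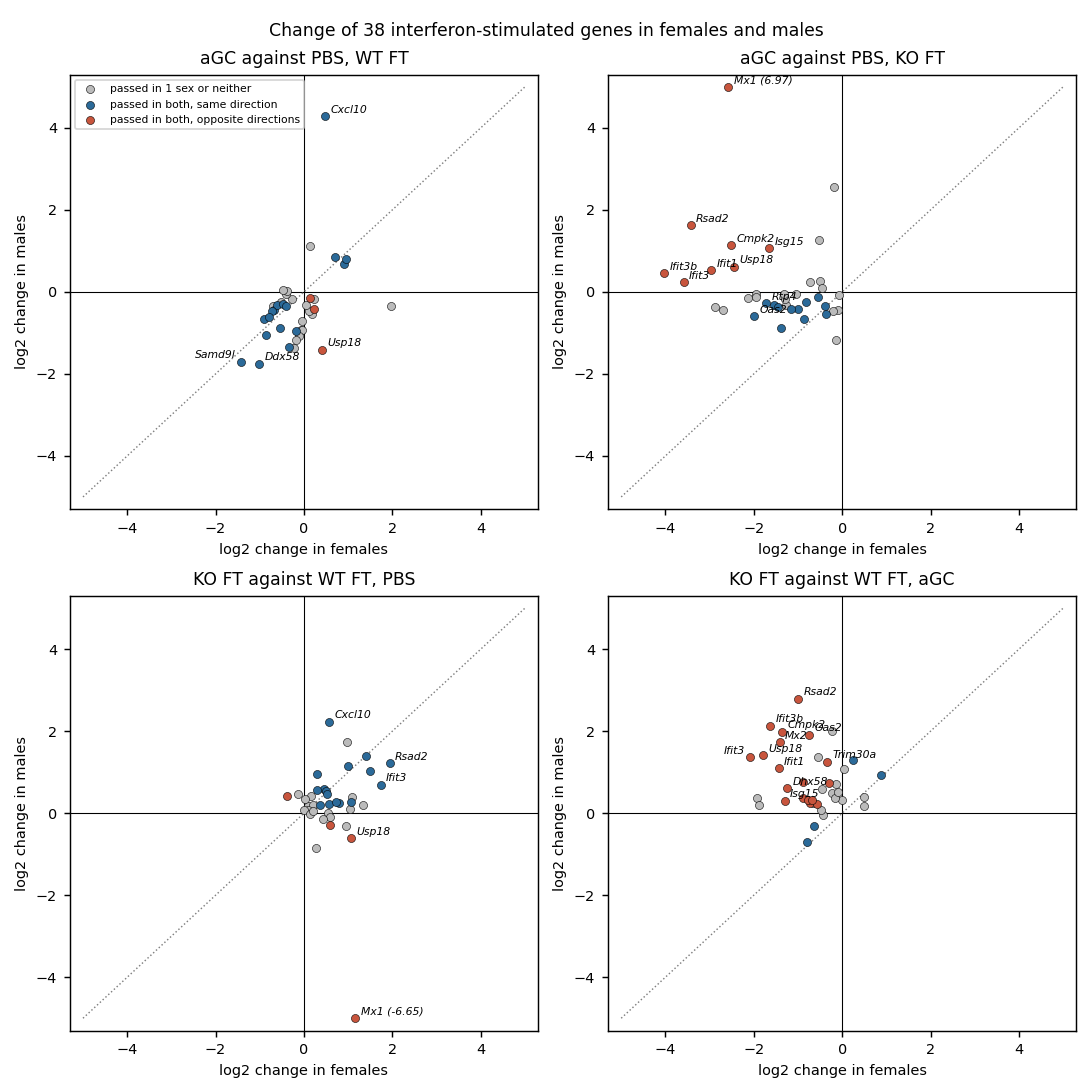
Log2 change of each of the 38 genes in females (horizontal axis) and males (vertical axis) for aGC against PBS and for KO FT against WT FT. Blue points passed in both sexes in the same direction and red points in opposite directions, and the dotted line marks equal change. Mx1 is drawn at the axis limit in the upper right and lower left panels, with its male values of 6.97 and -6.65 in brackets. The red points of the KO FT aGC panel and of the aGC transplant panel lie at the upper left, lower in females and higher in males.

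The third comparison set KO FT against WT FT within a treatment. After PBS, 27 of the 38 genes were higher and 1 lower with KO FT in females, where 29.8% of all genes passed, 14.9% in each direction. In males 21 were higher and 4 lower, where 42.5% of all genes passed, 21.1% higher and 21.4% lower. The median log2 difference was 0.55 in females and 0.25 in males, against 0.00 and -0.01 for all genes. The CD8 and naive T cell markers summed to 636 to 639 CPM with WT FT and 574 to 612 CPM with KO FT in these females and to 2778 to 2820 against 1859 to 1908 CPM in these males, and their part in the transplant results was not tested.

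Among the IFIT genes after PBS, Ifit3 was at 118, 113 and 117 CPM in WT FT females and at 391, 375 and 394 CPM in KO FT females. In males it was at 58.6, 59.5 and 58.8 CPM with WT FT and at 93.5, 99.9 and 92.7 CPM with KO FT. Both sexes were without overlap and in the same order, with log2 differences of 1.74 ± 0.07 (adjusted p = 1.44e-13) and 0.70 ± 0.08 (adjusted p = 2.27e-07). Ifit1 was at 167, 170 and 169 CPM in WT FT females against 372, 350 and 331 CPM with KO FT, and at 86.5, 82.1 and 80.7 CPM in WT FT males against 97.8, 102 and 101 CPM. Its log2 differences were 1.06 ± 0.06 (adjusted p = 2.24e-11) and 0.27 ± 0.06 (adjusted p = 0.00101). Ifit3b was higher by 1.49 ± 0.15 in females and by 1.02 ± 0.17 in males.

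Mx2 after PBS was at 3.47, 2.81 and 3.52 CPM in WT FT females against 8.99, 6.30 and 10.7 CPM with KO FT, and at 1.94, 1.39 and 2.37 CPM in WT FT males against 4.96, 4.46 and 5.69 CPM. The KO FT libraries were higher without overlap in both sexes (1.41 ± 0.29 and 1.39 ± 0.30, adjusted p = 0.000882 and 0.000835). Oasl2 was higher with KO FT in females, at 28.0, 27.1 and 33.6 CPM against 9.90, 14.2 and 11 CPM (1.35 ± 0.15, adjusted p = 1.1e-06). In males Oas2 was at 6.69, 6.21 and 4.61 CPM with WT FT against 10.6, 12.7 and 15.4 CPM (1.14 ± 0.22, adjusted p = 0.000289), and Dhx58 at 31.6, 30.0 and 30.4 CPM against 65.2, 55.8 and 57.9 CPM (0.96 ± 0.10, adjusted p = 9.37e-08). Ifih1 was lower with KO FT in males, at 8.29, 8.01 and 8.45 CPM against 19.3, 11.7 and 13.1 CPM with WT FT (-0.84 ± 0.22, adjusted p = 0.00425).

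Rsad2 after PBS was at 9.95, 9.36 and 11.3 CPM in WT FT females against 33.4, 51.5 and 32.7 CPM with KO FT, and at 4.70, 3.05 and 3.85 CPM in WT FT males against 12.2, 6.93 and 8.36 CPM. The KO FT libraries were all above the WT FT libraries of their sex, with log2 differences of 1.94 ± 0.25 (adjusted p = 8.11e-06) and 1.21 ± 0.28 (adjusted p = 0.00135). Oas1a, an activator of RNase L through its product 2-5A, was at 76.9, 79.0 and 74.1 CPM against 114, 109 and 118 CPM in females and at 56.0, 54.1 and 54.4 CPM against 65.8, 65.6 and 60.4 CPM in males. The difference was 0.57 ± 0.06 (adjusted p = 1.21e-06) in females and 0.22 (adjusted p = 0.00760) in males. Cxcl10 was higher with KO FT by 0.56 ± 0.14 in females (adjusted p = 0.00473) and by 2.23 ± 0.22 in males (adjusted p = 6.65e-08), although all 6 male libraries were at or below 2.58 CPM.

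After PBS 16 of the 38 genes were higher with KO FT in both sexes, where 1.94% of all genes were, and none was lower in both (2.18% of all genes). The 16 were Dhx58, Zbp1, Eif2ak2, Isg20, Ifit1, Ifit3, Ifit3b, Oas1a, Oas2, Trim25, Parp12, Mx2, Rsad2, Bst2, Ifi27l2a and Cxcl10. Isg20 encodes an RNA exonuclease, Trim25 the ubiquitin ligase that acts on RIG-I, and Mx2, annotated as a polymorphic pseudogene, a second dynamin-like gene. Of the 16, 11 kept both calls without any single library. The female calls were lost for Dhx58 without replicate 3 of WT FT or KO FT (adjusted p = 0.0894 and 0.0870) and for Eif2ak2 without WT FT replicate 1 or 2 or KO FT replicate 1 (0.0514 to 0.0992). The female call of Trim25 lay at the threshold and was lost without any of 16 libraries (0.0502 to 0.309). The male calls were lost for Isg20 without replicate 1 of WT FT or KO FT (0.0704 and 0.101) and for Bst2 without WT FT replicate 2 or KO FT replicate 1 or 2 (0.0507 to 0.0654). Of the 16, 11 had a promoter window and 8 of those the ISRE core, against 13 of 28 over the whole list. The core was in 3 of 11 windows of genes that passed in 1 sex only. It was in 0 of 2 for opposite calls and in 2 of 4 for genes that passed in neither sex. A link between the core and these calls was not tested.

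Usp18, Mx1, Xaf1 and Samd9l passed in opposite directions after PBS (11.1% of all genes). Usp18 was higher with KO FT in females (1.07 ± 0.05, adjusted p = 3.04e-12) and lower in males (-0.61 ± 0.06, adjusted p = 1.97e-08), from the values given above. Mx1 was higher in females, at 8.35, 7.87 and 7.51 CPM with WT FT against 21, 16.1 and 16.2 CPM (1.16 ± 0.19, adjusted p = 9.61e-05). In males the 5 counts of the KO FT libraries put the WT FT males 109-fold higher (95% exact interval 46.5 to 337). Xaf1, which encodes a pro-apoptotic partner of XIAP, was higher in females by 0.59 ± 0.06 (adjusted p = 1e-06) and lower in males at -0.28 (adjusted p = 0.00178). Samd9l was lower with KO FT in females (-0.39 ± 0.13, adjusted p = 0.0287) and higher in males. Its calls were lost in each sex without 1 library, in females without replicate 3 of WT FT or KO FT (adjusted p = 0.114 and 0.172) and in males without WT FT replicate 1 or KO FT replicate 2 (adjusted p = 0.0877 and 0.100). Ddx58, Helz2, Trim30a, Dtx3l and Rtp4 passed in neither sex. The transplant difference itself differed between the sexes for 20 of the 38 genes (42.8% of all genes).

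After aGC the order of the transplants differed between the sexes. In females 4 of the 38 genes were higher and 25 lower with KO FT, where 43.4% of all genes passed, 19.0% higher and 24.4% lower. In males 29 were higher and 2 lower, where 46.5% passed, 24.2% higher and 22.4% lower. The medians were -0.65 and 0.56, against -0.04 and 0.01 for all genes. The marker sums of CD8 and naive T cells were 2307 to 2368 against 1752 to 1823 CPM in females and 488 to 530 against 467 to 511 CPM in males.

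Ifit3 after aGC was at 129, 139 and 138 CPM in WT FT females and at 29.6, 29.9 and 36.3 CPM in KO FT females. In males it was at 43.7, 46.2 and 41.6 CPM with WT FT and at 115, 97.1 and 125 CPM with KO FT. The log2 differences of -2.07 ± 0.08 (adjusted p = 2.57e-14) and 1.36 ± 0.08 (adjusted p = 6.67e-12) came from groups without overlap. Ifit1 was at 122, 120 and 124 CPM against 43.7, 43.1 and 48.1 CPM in females, and at 64.4, 71.7 and 67.1 CPM against 156, 146 and 132 CPM in males (-1.44 ± 0.06 and 1.09 ± 0.06, adjusted p = 2.18e-13 and 6.04e-12). Ifit2 was higher with KO FT in males, at 5.25, 7.13 and 7.86 CPM against 28.6, 27.6 and 24.6 CPM (1.99 ± 0.12, adjusted p = 3.00e-11), and did not pass in females. Ifit3b was lower with KO FT in females (-1.63 ± 0.19, adjusted p = 6.06e-07) and higher in males (2.13 ± 0.18, adjusted p = 2.42e-09).

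Oasl2 after aGC was at 44.7, 44.8 and 46.9 CPM in WT FT females and at 13.4, 10.6 and 12.1 CPM with KO FT (-1.92 ± 0.15, adjusted p = 3.36e-09). Oas2 was higher with KO FT in males, at 1.33, 3.13 and 2.28 CPM against 10.2, 7.66 and 7.73 CPM (1.91 ± 0.26, adjusted p = 2.25e-06). The 4 genes that were higher with KO FT in females were Ddx58, Samd9l, Trim25 and Oas3. Trim25 was at 22.4, 21.6 and 26.9 CPM against 34.0, 28.3 and 36.8 CPM (0.49 ± 0.12, adjusted p = 0.00146). Oas3 was at 10.8, 14.3 and 15.5 CPM against 19.6, 16.7 and 20.3 CPM (0.48 ± 0.18, adjusted p = 0.0327), and its call was lost without WT FT replicate 1 (adjusted p = 0.170) or KO FT replicate 1 or 3 (adjusted p = 0.0770 and 0.108).

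Usp18 after aGC was lower with KO FT in females (-1.79 ± 0.06, adjusted p = 8.42e-16) and higher in males (1.41 ± 0.06, adjusted p = 4.89e-14), the reverse of its order after PBS in both sexes. Rsad2 was at 6.84, 7.81 and 7.14 CPM in WT FT females and at 2.01, 2.51 and 5.88 CPM with KO FT, and in males at 3.55, 4.13 and 4.41 CPM against 23.8, 36.2 and 23.7 CPM. The male difference was 2.79 ± 0.28 (adjusted p = 3.51e-08). The female one was -1 ± 0.30 (adjusted p = 0.00995) and was lost without WT FT replicate 2 (-0.87, adjusted p = 0.0514) or KO FT replicate 1 or 2 (-0.76 and -0.80, adjusted p = 0.0576 and 0.0603). Cmpk2 differed by -1.37 ± 0.14 in females (adjusted p = 1.10e-07) and by 1.98 ± 0.14 in males (adjusted p = 1.99e-10).

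Opposite calls after aGC were made for 18 of the 38 genes, against 4.45% of all genes, and all 18 were lower with KO FT in females and higher in males. Only 2 genes of the list were lower with KO FT in males, so at most those 2 could have had the other order. They were Dhx58, Zbp1, Isg20, Ifit1, Ifit3, Ifit3b, Oas1a, Oas2, Oasl1, Isg15, Usp18, Trim30a, Parp9, Mx2, Rsad2, Cmpk2, Rtp4 and Xaf1. Of these 12 kept both calls without any single library. The male calls were lost for Oas1a without KO FT replicate 3 (adjusted p = 0.0644), for Isg15 without WT FT replicate 1 or KO FT replicate 3 (0.243 and 0.290) and for Rtp4 without replicate 2 of WT FT or KO FT (0.0517 and 0.114). The female calls were lost for Oas2 without WT FT replicate 2 or KO FT replicate 3 (0.149 and 0.111), for Rsad2 as above, and for Trim30a without any of 6 libraries (0.0902 to 0.337). The test of the difference between the sexes passed for 33 of the 38 genes (29.8% of all genes), each with the male value above the female one.

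The same call was made in both sexes after aGC for 4 genes. Ddx58 and Samd9l were higher with KO FT (8.94% of all genes were), and Bst2 and Ifi27l2a were lower (12.2%). Ddx58 was higher in males by 1.29 ± 0.08 (adjusted p = 5.20e-11), whereas the female difference of 0.24 ± 0.08 (adjusted p = 0.0217) was lost without KO FT aGC replicate 1 (adjusted p = 0.0515) or 2 (adjusted p = 0.0982). Samd9l was higher by 0.88 ± 0.14 in females (adjusted p = 3.71e-05) and by 0.93 ± 0.15 in males (adjusted p = 2.05e-05). Ifi27l2a was lower in both, from 326, 354 and 318 CPM to 205, 188 and 180 CPM in females and from 229, 227 and 251 CPM to 122, 132 and 181 CPM in males (-0.80 ± 0.11 and -0.69 ± 0.11, adjusted p = 5.79e-06 and 2.30e-05). Bst2 was lower in males at -0.30 ± 0.09 (adjusted p = 0.00613). The male Bst2 call was lost without WT FT aGC replicate 3 (-0.24, adjusted p = 0.0549).

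**Figure D3:**
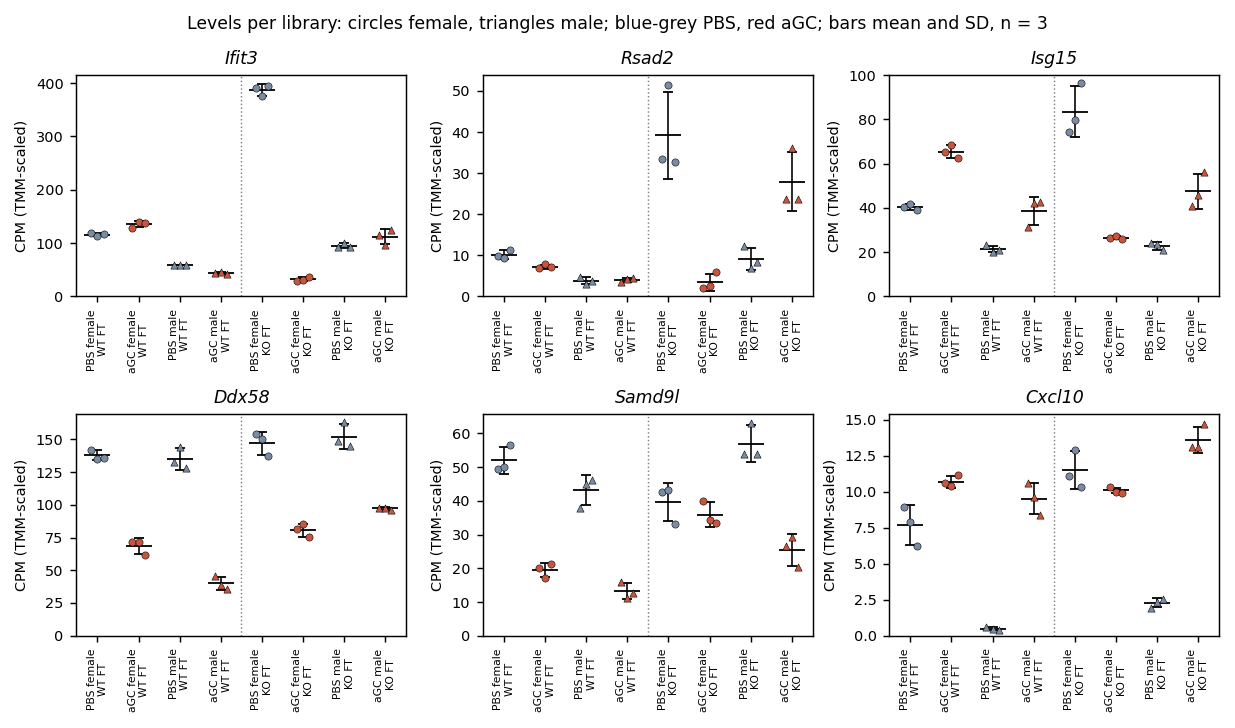
CPM per library (vertical axis, linear from 0) of Ifit3, Rsad2, Isg15, Ddx58, Samd9l and Cxcl10 in the 8 groups, with the mean and SD of 3 libraries. Ifit3 reaches 375 to 394 CPM in PBS females with KO FT and stays at or below 139 CPM in the other groups, Ddx58 is lower in every aGC group than in the PBS group beside it, and Cxcl10 is lowest in PBS males.

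Taking the transplant comparisons after PBS and after aGC side by side, which share no libraries, 10 of the 38 genes were higher with KO FT after PBS in both sexes, lower after aGC in females and higher after aGC in males. This order was found in 0.232% of all tested genes (37 genes, the 10 included). It was the only mixed order counted, and it follows the calls of these same genes given above. Its share therefore describes the list and is not a test of it. The 10 were Dhx58, Zbp1, Isg20, Ifit1, Ifit3, Ifit3b, Oas1a, Oas2, Mx2 and Rsad2, and Zbp1, Ifit1, Ifit3, Ifit3b and Mx2 kept all 4 calls without any single library. No gene of the list was higher, or lower, with KO FT in all 4 pairs of groups (0.194% and 0.244% of all genes).

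Parp9 and Dtx3l, which encode an ADP-ribosyltransferase and its ubiquitin ligase partner, lie head to head, and their annotated transcripts share 458 bases on opposite strands. The libraries do not keep the strand, so reads of the shared stretch cannot be told apart. Dtx3l had means of 49.9 to 55.5 CPM in 7 groups and was at 27.1, 21.7 and 26.3 CPM in aGC males with WT FT. It fell there with aGC by 1.07 on the log2 scale (adjusted p = 6.36e-12) and did not pass in the 3 other comparisons of aGC with PBS. Parp14 was highest in PBS females with KO FT, at 75.9, 75.2 and 67.6 CPM, and fell with aGC to 17.1, 18.1 and 14.7 CPM (-2.13 ± 0.18, adjusted p = 4.94e-10). Its male change with KO FT was -0.14 (adjusted p = 0.510).

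The summed level of the 38 genes was followed beside that of other lists. Their summed CPM in PBS females with KO FT, given above, exceeded that of every other library. Of 19 genes upstream in the pathway (receptors, kinases, transcription factors, inhibitors and adaptors), 3 rose and 9 fell with aGC in WT FT females (28.6% and 29.8% of all genes), 2 rose and 17 fell in WT FT males (31.7% and 34.9%), 6 rose and 10 fell in KO FT females (27.7% and 28.3%), and 2 rose and 14 fell in KO FT males (26.8% and 26.7%). Irf7, the factor that amplifies interferon production and is itself interferon-induced, had the same order of groups at its ends as the list. Its means were 401 CPM in PBS females with KO FT and 120 CPM in aGC males with WT FT. It fell with aGC by 0.97 in WT FT males (adjusted p = 1.26e-12), by 1.42 in KO FT females (adjusted p = 3.04e-15) and by 0.68 in KO FT males (adjusted p = 1.23e-09), and was at 0.08 in WT FT females, which did not pass.

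The log2 levels of Stat2 and Irf9, parts of ISGF3, fell with aGC in WT FT males by 1.09 and 0.88 and in KO FT females by 0.83 and 0.59. The receptor genes Ifnar1 and Ifnar2 fell in WT FT females (-0.35 and -0.71) and in males of both transplants (-0.53 and -1.16 with WT FT, -0.53 and -0.41 with KO FT). For Stat2, Irf9 and the receptor genes, the pairs of groups left unnamed are not reported here. After aGC, 15 of the 19 upstream genes were higher with KO FT in males and none lower (24.2% and 22.4% of all genes), and in females 7 were higher and 8 lower (19.0% and 24.4%).

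Interferon genes themselves were at the edge of detection apart from Ifng. Of 20 listed genes of type I and type III interferons, 6 had no count in any library and all but Ifnz were at or below 0.125 CPM, where 3 counts correspond to 0.0810 to 0.307 CPM depending on the library. Ifnb1 had 1 count in all 24 libraries together, and Ifnz reached 1.21 CPM. Ifng, which encodes interferon gamma, the type II interferon, rose with aGC by 2.62 ± 0.09 and 3.18 ± 0.09 log2 units in WT FT females and males and by 1.73 ± 0.09 and 2.43 ± 0.10 with KO FT.

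Of 17 genes that respond mainly to interferon gamma, 11 rose and 2 fell with aGC in WT FT females (28.6% and 29.8% of all genes), 10 rose and 5 fell in WT FT males (31.7% and 34.9%), 5 rose and 8 fell in KO FT females (27.7% and 28.3%), and 6 rose and 1 fell in KO FT males (26.8% and 26.7%). The 5 that rose in KO FT females are close to the share of all genes. Gbp2 and Gbp3, guanylate-binding proteins of the defence against intracellular pathogens, rose in all 4, by 0.99, 1.00, 0.32 and 0.63 log2 units for Gbp2 and by 0.91, 1.68, 0.51 and 0.92 for Gbp3. Cd274, which encodes PD-L1, rose by 0.92, 0.76, 1.62 and 0.78. The summed level of the 17 genes was highest in aGC females with WT FT, at 5938 to 5994 CPM, and that of the 38 genes in PBS females with KO FT.

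**Figure D4:**
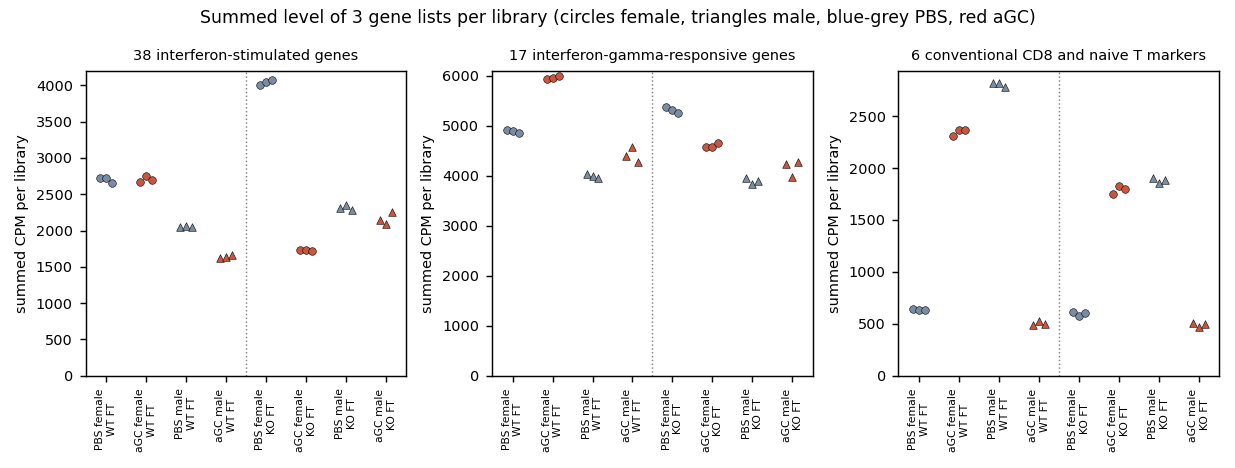
Summed CPM per library (vertical axes, linear from 0) of the 38 genes, of 17 genes that respond mainly to interferon gamma and of 6 markers of conventional CD8 and naive T cells, in the 8 groups. The 38 genes reach 4001 to 4079 CPM in PBS females with KO FT, and the CD8 and naive T cell markers are high in aGC females and PBS males.

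Markers of other cells that could carry these transcripts were followed in the same libraries. The 6 myeloid markers summed to 64.1 to 66.4 CPM in PBS females with WT FT and to 6.32 to 44.5 CPM elsewhere, mostly as Lyz2, with 36.5 to 44.5 CPM in PBS females with KO FT. The 5 plasmacytoid dendritic cell markers summed to 250 to 502 CPM, mostly as Ccr9 and Pacsin1 and highest in PBS males with KO FT (478 to 502 CPM). Of the other 3, Siglech was at or below 1.73 CPM in every library, the group means of Tcf4 were 1.58 to 6.88 CPM, and Klk1 had no count in 3 groups. With aGC Ccr9 fell in both sexes with WT FT and in KO FT males and rose in KO FT females (0.27, adjusted p = 7.12e-05), where Siglech fell by 2.13 on the log2 scale (adjusted p = 0.00323). The B cell markers summed to 448 to 1068 CPM, mostly as Ighm. Their part in the results was not tested.

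Since aGC males and PBS females were both low in the CD8 and naive T cell markers, the levels were also compared between these groups, where sex and treatment cannot be told apart. With WT FT 2 of the 38 genes, Bst2 (0.51) and Ifi27l2a (0.45), were higher in aGC males and 32 lower, where 28.2% of all genes were higher and 32.0% lower. Ddx58 was at -1.79, Samd9l at -1.97 and Ifit3 at -1.40, while Isg15 (-0.07, adjusted p = 0.645) and Cxcl10 (0.30, adjusted p = 0.0795) did not pass. With KO FT none was higher and 32 lower, where 25.6% of all genes were higher and 24.3% of all genes were lower, with Ifit3 at -1.78, Usp18 at -1.23 and Rsad2 at -0.49 (adjusted p = 0.0943). Isg15 and Cxcl10, which rose with aGC in both sexes of the WT FT mice when each sex was compared with itself, did not pass this test. The PBS females with KO FT in this test are the highest group for 26 of the 38 genes. Between aGC females and PBS males, both high in the markers, no test was made. With WT FT the 38 genes summed to 2669 to 2754 CPM in aGC females and to 2054 to 2060 CPM in PBS males. With KO FT the sums were 1723 to 1736 CPM in aGC females and 2287 to 2345 CPM in PBS males.

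With the sexes averaged, aGC against PBS gave 5 genes higher and 26 lower with WT FT (68.4% of all genes passed) and 3 higher and 32 lower with KO FT (58.1%). KO FT against WT FT gave 28 higher and 1 lower after PBS (29.4%) and 13 higher and 16 lower after aGC (51.9%). When each group was summed to 1 profile, so that the 2 sexes served as the replicates, the biological coefficient of variation went from 0.108 to 0.424. With 3 residual degrees of freedom, 4 genes then passed for aGC with WT FT, Ddx58 and Samd9l lower and Bst2 and Ifi27l2a higher (lowest adjusted p = 0.0166). None passed in the 3 other averaged comparisons, where 11 had an unadjusted p under 0.05 for aGC with KO FT, 2 for the transplant after PBS and 4 for the transplant after aGC.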

How the data were processed

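RNA of iNKT cells was measured in 24 libraries, 3 for each of 8 groups. Per the labels' protocols, total RNA came from a Single Cell RNA Purification Kit and libraries from Nextera XT, which does not keep the strand. The authors deposited expected counts per gene, in whole numbers, and per the submitters' processing notes they used kallisto with the mouse build GRCm38 (mm10). The sources used here do not give the kallisto version, the annotation release or how transcripts were summed. Symbols and positions came from GENCODE M21 for 55154 of 55335 genes.

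Counts were tested with edgeR 4.0.16 (glmQLFit and glmQLFTest, two-sided) in R 4.3.3 after filterByExpr (minimum count 10, minimum total 15) and TMM scaling. All 24 libraries entered 1 fit with 8 group means and 16 residual degrees of freedom, from which 18 contrasts were drawn. P-values were adjusted by Benjamini-Hochberg over all 15953 tested genes with a threshold of 0.05. The SE was taken as the size of the log2 change over the root of its F statistic. The fit was tested on simulated data. Alternatives were DESeq2 1.42.0, its style of size factors, no filter, a replicate block, the 2 compared groups alone, 1 summed profile per group, aGC males against PBS females, Ifit3 and Ifit3b summed, and each library left out. Replicates of all groups were distinct (chi-square per degree of freedom 4.11 to 16.4 in 24 pairs).

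The 38 genes, the other lists and the tests were chosen with earlier results of these data known. For each contrast, up to 6 members per direction with the largest change among those past the threshold and at 5 CPM or more in a compared group were given with their change and test, and the other members by counts and ranges. The check of labelled sex and treatment was added after the data were seen. Genes shown from the other lists were those with the lowest adjusted p and the receptor, STAT and IRF genes. Some genes of the other lists entered the sums and counts but are not reported here by name. Figures used matplotlib 3.10.9 in Python 3.11.15.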

Additional observations from a re-analysis of the deposited data

Results flagged for a closer look

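Contrasts of effects, tested in the same edgeR fit, asked for which genes of the list the change differed between the sexes or between the transplants. Each value below is the difference of 2 log2 changes, and the share of all tested genes that passed the same contrast stands beside each count.

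The male change with aGC differed from the female one for 16 of the 38 genes with WT FT, which is below the share of all genes (47.7%). The 4 largest differences were 3.81 for Cxcl10, -2.32 for Oasl2, -1.82 for Usp18 and -1.14 for Oas2. With KO FT 32 genes differed (46.7% of all genes), led by Mx1 at 9.54, Rsad2 at 5.05, Ifit3b at 4.48 and Ifit3 at 3.83. The Mx1 value rests on the 5 counts of PBS males with KO FT and depends on the prior count of the fit. In both transplants the CD8 and naive T cell markers also changed with aGC in opposite directions in the sexes, and their part was not tested.

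The effect of the transplant differed between the sexes for 20 genes after PBS (42.8% of all genes), with Mx1 at -7.81, Usp18 at -1.69, Cxcl10 at 1.67 and Cmpk2 at -1.27. After aGC it differed for 33 genes (29.8%), with Rsad2 at 3.79, Ifit3b at 3.76, Ifit3 at 3.43 and Cmpk2 at 3.35. The female and male groups of these contrasts have no dam, litter or cage given, so that sex and any of these cannot be told apart.

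The change with aGC differed between KO FT and WT FT for 33 genes in females (44.2% of all genes), with Ifit3 at -3.81, Oasl2 at -3.27, Ifit3b at -3.12 and Rsad2 at -2.94. In males it differed for 22 genes (39.0%), with Mx1 at 8.01, Cmpk2 at 2.30, Usp18 at 2.02 and Cxcl10 at -1.71.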

How the results depend on the processing

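Of the counts of genes recomputed under alternatives other than leaving out a library, 176 were within 1.5 times the reported count and 12 were not. Without the filter on low counts, 5 genes instead of 8 were higher with aGC in WT FT females, and 2 instead of 1 were lower with KO FT after PBS with the sexes averaged. With 1 summed profile per group, 2 genes were higher and 2 lower for aGC with WT FT, and 0 were higher and 0 lower for aGC with KO FT, for the transplant after PBS and for the transplant after aGC. This fit has 3 residual degrees of freedom, and its spread is how the difference between the sexes varies among the 4 combinations of treatment and transplant. For aGC males against PBS females, 2 genes were higher with WT FT and 0 with KO FT. Some counts within 1.5 times also fell. With only the 2 compared groups in the fit, opposite transplant calls after aGC went from 18 to 13. For aGC with KO FT, calls in the same direction in both sexes went from 12 to 8, and genes lower in males from 15 to 10.

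Leaving out 1 library at a time gave 5 to 9 genes higher with aGC in WT FT females (5 without aGC replicate 3) and 1 to 4 genes with opposite changes in the sexes with WT FT (1 without aGC female replicate 2 or 3 or aGC male replicate 2). It gave 0 to 1 lower with KO FT in PBS females (0 without WT FT or KO FT replicate 3), 2 to 4 higher in aGC females (2 without KO FT replicate 1) and 1 to 2 lower in aGC males (1 without WT FT replicate 3). Of 2179 recomputed values of 75 named changes, 2164 kept direction and call, 15 kept the direction but not the call, and 0 reversed. Cxcl10 in WT FT females was among the 15 also without the filter, at 0.37. The 75 were chosen as the largest changes past the threshold, and many settings left out a library outside the groups compared. The tally therefore does not measure how stable the other calls are. Without any single library, 23 of the 29 genes higher with KO FT in aGC males kept the call. Of the 32 genes lower with aGC in KO FT females, 31 did.

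The replicate numbers were checked for a pairing of the libraries. Deviations of same-numbered libraries of different groups had correlations of -0.121 to 0.199 (median 0.001, 84 pairs). Those of differently numbered libraries had correlations of -0.151 to 0.092 (median 0.001, 168 pairs). The medians were equal, and a pairing between particular groups was not tested. With the replicate block, 26 instead of 24 genes were lower with aGC in WT FT males, 33 instead of 32 in KO FT females, and 22 instead of 21 were higher with KO FT in PBS males, and no count moved by over 1.5 times. Depth limits Mx1 in PBS males with KO FT, the interferon genes other than Ifng, and Ifi44, which had group means of 0.725 to 6.84 CPM and whose call in WT FT males (adjusted p = 0.0498) was lost without single libraries.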

Other observations

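Isg20 encodes a 3′ to 5′ exonuclease of single-stranded RNA. It was 1 of the 10 genes with their lowest level in aGC females with KO FT. All 10 had their highest level in PBS females with KO FT. Isg20 was at 126, 134 and 153 CPM in those PBS females and at 32.4, 36.2 and 38 CPM in those aGC females. The other 6 groups had Isg20 means of 48.6 to 79.9 CPM. Its log2 change with aGC in KO FT females was -1.95 ± 0.08 (edgeR, adjusted p = 2.78e-15), without overlap.

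Lgals3bp, which encodes a secreted glycoprotein that binds galectins, varied least among the groups, with means of 285 to 444 CPM and a ratio of 1.56 between the highest and lowest mean. Mx1 had the largest ratio (171), which rests on the 5 counts of PBS males with KO FT. Cxcl10 followed at 28.3, Ifit3b at 16, Ifit3 at 12.1 and Rsad2 at 11.3.

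Ifngr1, which encodes the ligand-binding chain of the interferon gamma receptor, fell with aGC in all 4 pairs of groups, with log2 changes of -1.46 and -1.09 in WT FT females and males and of -1.39 and -1.30 with KO FT. Socs3, a feedback inhibitor of cytokine signalling, fell in males of both transplants (-2.59 with WT FT and -2.36 with KO FT). Its changes in females are not reported here. The aGC males were low and the PBS males high in the CD8 and naive T cell markers, whose part in this fall was not tested.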
